A study of Mus musculus with 3 samples.

Results

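The T cell receptor beta locus (Trb) was followed through 53 rows of the count table, out of 44788 rows in all. They are every row whose symbol begins with Trbv, Trbd, Trbj or Trbc followed by a digit: 35 variable, 2 diversity, 14 joining and 2 constant rows. The cells were T lymphocytes from the spleens of BALB/c mice, females of 6 to 8 weeks, pulled out with magnetic beads through the T cell surface protein CD90.2. They were kept in RPMI medium with 2% serum and given LZ-8, a protein of the Ganoderma lucidum fungus that acts on immune cells, for 10 h. All 3 libraries, replicates 1, 2 and 3, carried that treatment, so there is no untreated group to set these values against. Nothing in the labels tells if the replicates are different animals or cultures. The SDs measure only the spread between these libraries, possibly a technical one, and no p-value reaches beyond these libraries.

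A beta chain gene is assembled in each developing T cell by joining a variable, a diversity and a joining segment, and splicing then links the joined exon to a constant gene. The chain pairs with an alpha chain and is carried to the surface with the CD3 proteins, and each mature T cell generally uses a single functional beta rearrangement. In bulk RNA, fewer cells using a segment and less RNA per cell cannot be told apart. The locus lies on chromosome 6. Trbv1 to Trbv30 lie upstream of Trbd1, followed by the first joining cluster and Trbc1, then by Trbd2, the second joining cluster and Trbc2. Trbv31 lies beyond Trbc2 in the opposite orientation. From Trbv1 to Trbv31 the locus spans 667 kb (chr6:40891296-41558371, GRCm38, positions of the RefSeq table, as all positions below).

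The diversity and joining segments are short, which bears on how reads can be assigned to them. They are shown here in full for both diversity segments and for the joining segments the results turn on. Capitals mark an in-frame TTTGG or TTCGG, the start of the phenylalanine and glycine codons that end the antigen-contacting loop in most joining segments. Sequences here and below are those of the GENCODE M21 transcripts (GRCm38, plus strand except for Trbv31). They are those of the reference mouse genome, C57BL/6J, and not of the BALB/c animals.
Trbd1: gggacagggggc
Trbd2: gggactgggggggc
Trbj1-6: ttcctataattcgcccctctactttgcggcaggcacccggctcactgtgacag
Trbj1-7: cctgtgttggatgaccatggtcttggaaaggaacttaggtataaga
Trbj2-1: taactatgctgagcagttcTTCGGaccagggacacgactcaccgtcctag
Trbj2-2: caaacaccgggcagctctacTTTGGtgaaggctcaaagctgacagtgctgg
Trbj2-3: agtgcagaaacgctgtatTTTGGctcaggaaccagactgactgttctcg
Trbj2-6: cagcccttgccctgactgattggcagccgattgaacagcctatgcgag
Trbj2-7: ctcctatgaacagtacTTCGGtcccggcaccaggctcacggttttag
Of the 14 joining rows, 11 held this motif in frame, and the exceptions were Trbj1-6, Trbj1-7 and Trbj2-6. Trbj2-6 is a pseudogene in both annotations used.

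Near its end, a variable segment usually carries the cysteine codon that opens the antigen-contacting loop. The last 45 bases are shown for the abundant segments outside the Trbv13 family, for those whose T cells are known to be removed in BALB/c mice, and for the pseudogene row Trbv24. Capitals mark TGTGC, the cysteine codon and the start of the codon after it, where it begins 10 to 23 bases before the end. It was found in 24 of 35 variable rows, with Trbv1 among those without it, where only these letters are missing from that window.
Trbv1: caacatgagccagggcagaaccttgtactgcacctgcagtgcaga
Trbv5: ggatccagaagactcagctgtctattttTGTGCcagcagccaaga
Trbv4: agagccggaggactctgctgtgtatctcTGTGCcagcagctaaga
Trbv19: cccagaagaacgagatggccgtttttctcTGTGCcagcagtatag
Trbv29: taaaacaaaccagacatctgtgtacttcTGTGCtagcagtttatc
Trbv31: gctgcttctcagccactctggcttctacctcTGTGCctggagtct
Trbv12-2: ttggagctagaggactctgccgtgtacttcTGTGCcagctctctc
Trbv12-1: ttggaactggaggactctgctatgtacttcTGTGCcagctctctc
Trbv15: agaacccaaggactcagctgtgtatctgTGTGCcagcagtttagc
Trbv16: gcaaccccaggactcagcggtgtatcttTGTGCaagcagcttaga
Trbv26: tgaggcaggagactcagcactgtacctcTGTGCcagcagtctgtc
Trbv24: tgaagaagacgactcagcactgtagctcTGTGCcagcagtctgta

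Counts of the locus were dominated by its constant genes. The constant rows held 6390, 7330 and 8199 counts in replicates 1, 2 and 3, the variable rows 1960, 2252 and 2314, and the joining rows 605, 710 and 816. The constant class made up 71.6 ± 0.629% of the counts of all 53 rows, the variable class 21.4 ± 0.842% and the joining class 6.95 ± 0.228% (mean ± SD here and below, n = 3 libraries). In CPM, counts scaled to a common effective library size, the classes summed to 498 ± 12.8, 149 ± 5.32 and 48.3 ± 1.98. The classes kept the same order in every library. Both diversity rows were at 0 counts in every library. A count of 0 allows up to 3 counts, or 0.236, 0.198 and 0.186 CPM in replicates 1, 2 and 3. These floors, and the intervals below, describe counting error alone.

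A row for the whole locus, Tcrb, was also in the table, with 10314, 12097 and 13217 counts. Its RefSeq bounds contain all 53 rows. The counts of the 53 rows summed to 86.8%, 85.1% and 85.7% of the size of the Tcrb count, 1359, 1805 and 1888 counts below it. No source used here gives the counting rule, so whether the same reads entered both kinds of row is not known.

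A few variable segments carried most of the counts. Trbv13-1 had 464, 522 and 565 counts in replicates 1, 2 and 3, which is 23.8 ± 0.623% of variable counts. Trbv13-2 followed with 292, 363 and 343 counts, or 15.3 ± 0.728%. These are the segments formerly called Vβ8.3 and Vβ8.2. The intervals of the 2 segments did not overlap in any library: in replicate 3 they were 22.7% to 26.2% for Trbv13-1 and 13.4% to 16.3% for Trbv13-2 (exact binomial, 95%). Trbv1, formerly Vβ2, had 215, 235 and 237 counts (10.5 ± 0.377%), and Trbv5, formerly Vβ1, 158, 203 and 216 counts (8.80 ± 0.662%).

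The next segments lay close together. Trbv13-3, formerly Vβ8.1, was at 5.50 ± 0.658%, Trbv4 (Vβ10) at 4.97 ± 0.319% and Trbv19 (Vβ6) at 4.73 ± 0.544%. Trbv29 (Vβ7) was at 4.26 ± 0.513%, Trbv31 (Vβ14) at 4.21 ± 1.59% and Trbv12-2 (Vβ5.1) at 3.57 ± 0.710%. Neighbours in this order from Trbv13-3 to Trbv12-2 differed by less than the larger of their SDs. The 5 most abundant segments held 63.9 ± 0.620% of variable counts and the 10 most abundant 85.6 ± 0.462%. The inverse Simpson index, which gives the number of equally used segments that would be as diverse, was 8.77, 8.75 and 8.61. The mix thus had the diversity of about 8.71 even segments in place of the 22 variable rows with a count in any library. With the Trbv12 and Trbv13 families each summed to a single row, the index was 4.34.

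**Figure D1:**
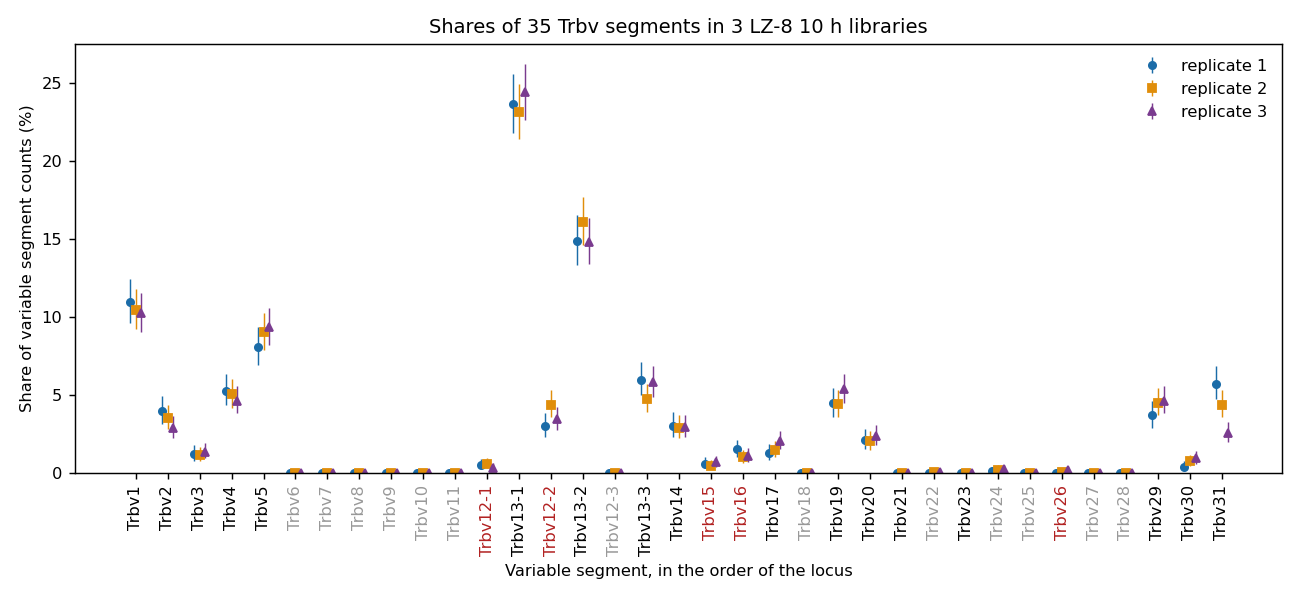
Share of the variable counts (percent, y axis) taken by each of 35 variable segments in the order of the locus (x axis), with a symbol per library and bars for exact 95% binomial intervals. Names in red are the superantigen list and names in grey the GENCODE pseudogenes; Trbv13-1 stands highest, at 23.7%, 23.2% and 24.4%.

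The order of the segments was much alike in the 3 libraries. Over the 20 variable rows with at least 10 counts in all, Spearman's rho between library shares was 0.961 between replicates 1 and 2. It was 0.945 between replicates 1 and 3 and 0.982 between replicates 2 and 3. These points share their libraries and are not independent. Over the same 20 rows, Pearson's r between share and exonic length was -0.097. Per kilobase of exon, Trbv13-1 took 24.7%, Trbv13-2 17.1% and Trbv1 9.61%, and Trbv19, whose annotated exons are longer, 3.17%.

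The 3 Trbv13 segments together held 44.5 ± 0.490% of variable counts, with 873, 992 and 1042 counts in replicates 1, 2 and 3. Their counts were unequal within the family. The log2 ratio of Trbv13-1 to Trbv13-2 was 0.64 ± 0.10, a 1.55-fold difference, and that of Trbv13-2 to Trbv13-3 was 1.48 ± 0.25, a 2.78-fold difference. Each ratio had the same sign in all 3 libraries. The last 120 bases of the segments are shown because near-identical copies can exchange reads; capitals mark bases that differ from Trbv13-2.
Trbv13-1: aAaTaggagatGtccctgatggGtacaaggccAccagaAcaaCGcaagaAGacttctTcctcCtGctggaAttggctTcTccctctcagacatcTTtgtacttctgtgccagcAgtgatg
Trbv13-2: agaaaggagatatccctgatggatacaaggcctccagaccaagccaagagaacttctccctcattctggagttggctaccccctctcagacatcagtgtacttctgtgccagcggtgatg
Trbv13-3: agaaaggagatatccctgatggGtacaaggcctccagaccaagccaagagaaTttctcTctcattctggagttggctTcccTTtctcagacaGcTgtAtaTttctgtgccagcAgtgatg
Trbv13-1 differed from Trbv13-2 at 19 of these 120 bases and Trbv13-3 at 11. Over the whole transcripts, Trbv13-2 and Trbv13-3 were 90.6% identical and Trbv13-1 and Trbv13-2 88.7%. Of the 291 windows of 50 bases in Trbv13-2, 1 also occurred in another Trb row, and no window of 100 bases in any variable row did. Whether BALB/c alleles differ from these reference sequences, and how reads that match several rows were handled, is not known here.

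The segments whose T cells are removed in BALB/c mice were mostly, but not all, scarce. Endogenous retroviral superantigens of this strain are known to delete many T cells that use Vβ3 (Trbv26), Vβ5 (Trbv12-1 and Trbv12-2), Vβ11 (Trbv16) and Vβ12 (Trbv15). Together these 5 rows held 107, 143 and 129 counts, or 5.79 ± 0.484% of variable counts. Trbv26 had 0, 1 and 3 counts, at or below the floor of 3 counts in each library. Trbv12-1 had 9, 12 and 7 counts (0.432 ± 0.118%), and Trbv15 had 11, 10 and 15 (0.551 ± 0.102%).

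Trbv16 had 29, 22 and 25 counts, or 1.18 ± 0.265% of variable counts. Low shares were not particular to this list. Of the functional rows of GENCODE off the list, Trbv30 was at 0.658%, Trbv3 at 1.21%, and Trbv21 and Trbv23 at 0 counts. Most others stood higher. Trbv12-2 stood apart from its list with 58, 98 and 79 counts, which gives it rank 10 among the 35 variable rows. The log2 ratio of Trbv12-2 to Trbv12-1, its close relative with 88.3% identity, was 2.62, 2.98 and 3.41 in replicates 1, 2 and 3, a mean difference of 8.01-fold. The libraries come from 1 strain and no strain without these superantigens was measured, so the share that these segments take without deletion was not measured.

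The remaining variable rows with counts were intermediate or at the floor. Trbv2 had 77, 79 and 66 counts, Trbv14 59, 65 and 68, Trbv20 41, 45 and 54, Trbv17 24, 33 and 47, and Trbv3 23, 25 and 31. Trbv30 had 7, 16 and 21 counts. In all, 19 of 35 variable rows reached 3 counts in every library and 13 had 0 counts in all libraries. The floor of 3 counts is 0.153%, 0.133% and 0.130% of variable counts in replicates 1, 2 and 3, and the two-sided exact intervals of a row at 0 reach 0.188%, 0.164% and 0.159%.

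Rows at 0 were mainly pseudogenes. GENCODE types 13 variable rows as pseudogenes, of which 11 were at 0, and of its 22 other rows Trbv21 and Trbv23 were at 0. The pseudogene rows with counts were Trbv24, with 2, 4 and 5, and Trbv22, with 0, 1 and 1. Together they made up 0.194 ± 0.0822% of variable counts. The RefSeq table also types 13 rows as pseudogenes, 12 of them the same. It places Trbv29 there and Trbv24 among the functional rows, and with its types the pseudogene share is 4.29%. Trbv29 had 72, 101 and 107 counts, above most functional rows.

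Position along the locus did not order the segments simply. Trbv1, the segment farthest upstream, starts at -642 kb from Trbd1 and had rank 3 in share, and Trbv13-1 starts at -417 kb. Trbv30, the nearest upstream segment, was at 0.658 ± 0.279%, and Trbv31, 24.5 kb downstream of Trbd1, at 4.21 ± 1.59%. Over the 20 variable rows with at least 10 counts, Spearman's rho between share and distance was 0.346, and 0.411 over the 19 rows without Trbv31. These are descriptions over neighbouring segments of 1 locus.

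**Figure D2:**
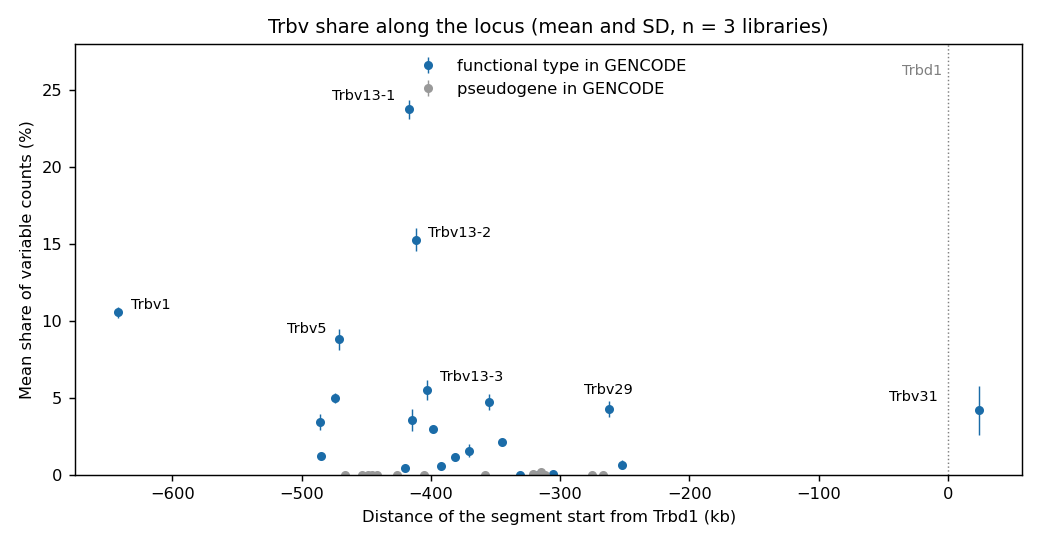
Mean share of variable counts (percent, y axis; bars are the SD over 3 libraries) against the distance of each segment start from Trbd1 (kb, x axis; negative is upstream), in blue for functional and grey for pseudogene types of GENCODE. The highest point is Trbv13-1 at 23.8% and -417 kb.

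The second joining cluster held more counts than the first. Its 7 rows had 392, 432 and 567 counts, against 213, 278 and 249 for the 7 rows of the first cluster. The share of the second cluster was 65.0 ± 4.33%, and the log2 ratio of second to first was 0.90 ± 0.28, with the same sign in all 3 libraries. Across 3 libraries an exact two-sided sign-flip test cannot give a p below 0.25, the value it gave. Trbj2-7 had 109, 118 and 139 counts, or 17.2 ± 0.717% of joining counts, and Trbj2-1 had 85, 102 and 146 (15.4 ± 2.13%). Trbj2-5 had 79, 75 and 75 counts (10.9 ± 1.96%), and Trbj2-2 was the lowest of its cluster with 8, 8 and 16 (1.47 ± 0.436%).

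In the first cluster, Trbj1-6 was highest with 63, 77 and 62 counts (9.62 ± 1.76%). It was followed by Trbj1-2 at 7.17 ± 0.830% and Trbj1-3 at 6.71 ± 0.659%. Trbj1-7, which lacks the motif, was lowest with 3, 5 and 6 counts. The pseudogene Trbj2-6, which also lacks it, had 22, 23 and 23 counts (3.23 ± 0.409%), fewer than the adjacent Trbj2-5 and Trbj2-7 and more than Trbj2-2 in every library. Trbj1-6 lacks the same letters and had the largest count of its cluster in every library, so rows without these letters stood both high and low in the order. Joining rows span 46 to 53 bases in these transcripts, and no source used here says how reads across a joined segment were assigned.

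**Figure D3:**
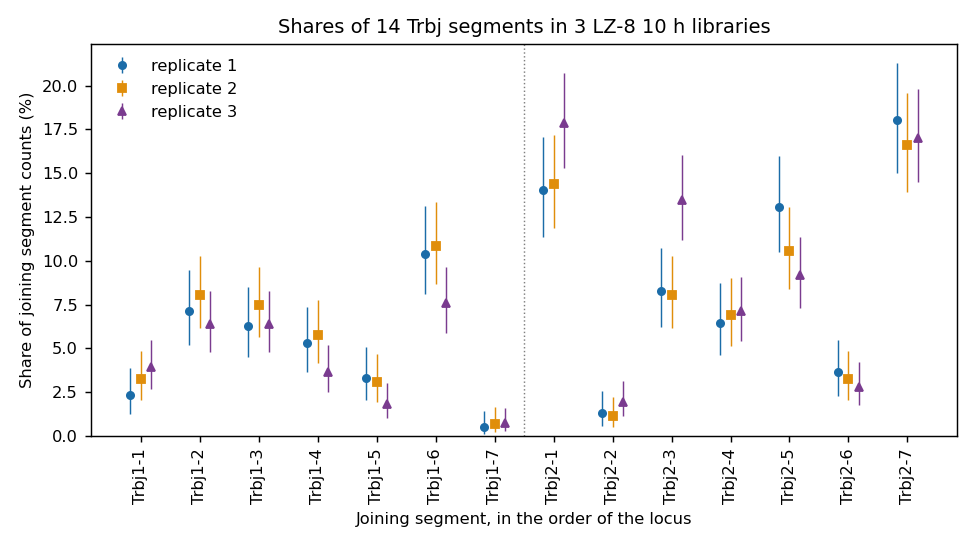
Share of the joining counts (percent, y axis) taken by each of 14 joining segments in the order of the locus (x axis), with a symbol per library and bars for exact 95% binomial intervals; the dotted line divides the first cluster from the second. Trbj2-7 stood highest, at a mean of 17.2%, and Trbj2-3 stood higher in replicate 3, at 13.5%, than in replicates 1 and 2, at 8.26% and 8.03%.

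Of the constant genes, which encode the membrane-anchored part of the chain, Trbc2 was more abundant than Trbc1. Trbc2 had 4568, 5104 and 5300 counts, or 341 ± 15.8 CPM, and Trbc1 had 1822, 2226 and 2899, or 156 ± 20.1 CPM. The log2 ratio was 1.13 ± 0.23, a 2.19-fold difference of the same sign in all 3 libraries (exact sign-flip p = 0.25, the smallest possible). Per kilobase of exon, Trbc2 was at 493 ± 22.8 CPM and Trbc1 at 209 ± 26.8 CPM. A stretch of both genes is shown because it is where they part, from base 361 to base 510 of the aligned transcripts, within the coding part; capitals mark the 20 bases that differ.
Trbc2: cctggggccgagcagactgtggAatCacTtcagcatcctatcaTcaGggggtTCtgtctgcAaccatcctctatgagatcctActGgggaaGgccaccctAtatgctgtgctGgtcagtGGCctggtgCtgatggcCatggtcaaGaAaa
Trbc1: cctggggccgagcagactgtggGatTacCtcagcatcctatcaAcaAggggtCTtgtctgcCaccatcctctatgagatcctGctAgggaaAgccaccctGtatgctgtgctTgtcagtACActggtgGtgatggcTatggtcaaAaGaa
The first 382 aligned bases of the genes differed at 1 base. Of the 50-base windows of Trbc1, 41.1% also occurred in Trbc2, and of those of Trbc2, 44.0% occurred in Trbc1. Reads from these windows cannot be assigned to either gene by sequence, so the split between the constant genes is uncertain.

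The constant and joining classes can be set side by side because a rearrangement to the first joining cluster is normally spliced to Trbc1 and one to the second to Trbc2. The share of Trbc2 in constant counts was 71.5%, 69.6% and 64.6% in replicates 1, 2 and 3, lowest in replicate 3 (exact 95% interval 63.6% to 65.7%). The share of the second joining cluster was 64.8%, 60.8% and 69.5%, highest in replicate 3 (66.2% to 72.6%). Its interval in replicate 3 overlapped that in replicate 1 (60.8% to 68.6%) and not that in replicate 2 (57.1% to 64.5%).

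Differences between libraries were tested over the whole table by chi-square, with raw counts set against effective library sizes and Benjamini-Hochberg adjustment. It sets libraries, not conditions, against counting error alone and takes reads as independent molecules. Of the 53 rows, 34 passed the minimum expected count of 5 per library, and 4 of these differed at an adjusted p below 0.05, or 11.8%, against 42.8% of all 15392 genes tested. The test finds smaller differences in genes with more counts, and the 34 rows had a median of 209.5 summed counts against 813.5 for all genes tested. The 4 rows were Trbc1, Trbc2, Trbv31 and Trbj2-3, and Trbj2-1 also passed an unadjusted 0.05 with an adjusted chi-square p of 0.0564.

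Trbv31 was the variable segment that differed. It had 112, 98 and 59 counts, or 8.80, 6.46 and 3.65 CPM, a 2.41-fold range (adjusted chi-square p = 1.00e-06). Its share of variable counts, which does not depend on library scaling, was 5.71% in replicate 1 (exact 95% interval 4.73% to 6.84%) and 2.55% in replicate 3 (1.95% to 3.28%). Without replicate 3 the adjusted chi-square p was 0.0919. Trbv30 spread almost as widely, 2.37-fold, on far fewer counts and did not pass (adjusted chi-square p = 0.218). Trbj2-3 had 50, 57 and 110 counts, or 3.93, 3.76 and 6.81 CPM (adjusted chi-square p = 0.000411). Without replicate 3 its adjusted chi-square p was 0.912.

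Trbc1 was at 143, 147 and 180 CPM (adjusted chi-square p = 2.13e-16), and without replicate 3 the adjusted p was 0.623. Trbc2 was at 359, 337 and 328 CPM, a 1.09-fold range (adjusted chi-square p = 0.000175). Its call was lost without replicate 1 (adjusted p = 0.394) and with total counts in place of the scaling factor (0.665). With total counts Trbj2-1 passed instead (adjusted chi-square p = 0.0187). As a single row, the sum of both constant genes differed with an adjusted chi-square p of 0.0181. The libraries also differed in ribosomal RNA: the 18S row Rn18s-rs5 took 5.83%, 2.37% and 0.992% of counts in replicates 1, 2 and 3. That is the same order as Trbv31 and Trbc2 and the opposite of Trbc1, and Trbj2-3 followed neither order. With 3 libraries few orders are possible, so unrelated rows often share an order. On few counts, erythroid markers summed to 2.91, 2.57 and 1.61 CPM and neutrophil markers to 1.02, 0.330 and 0.124 CPM, falling likewise. Platelet markers, with at most 1 count each, fell as well. Other sums on few counts rose, as Trbc1 did: NK cell markers (0.786, 0.791 and 0.991 CPM), macrophage markers (0.550, 0.659 and 0.867) and thymocyte markers (0, 0.264 and 0.619). Sums of T cell, B cell and gamma-delta T cell markers followed neither order. The part of ribosomal RNA or of other cell types in the differences was not tested.

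**Figure D4:**
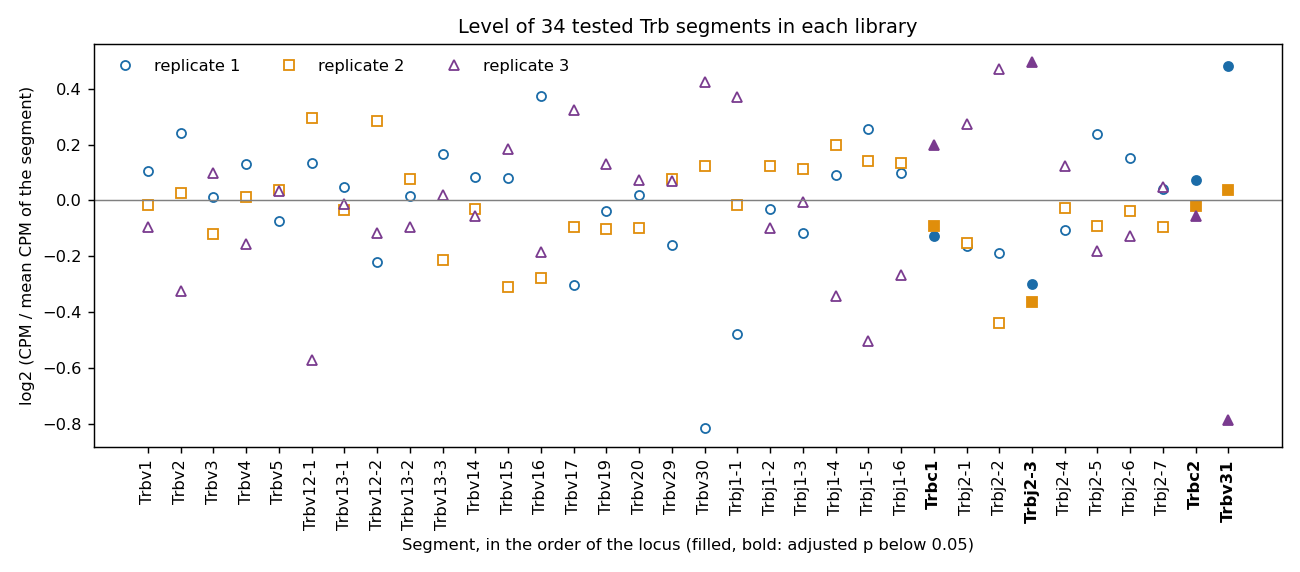
Level of each of the 34 tested segments in each library relative to the segment's mean (log2 of CPM over mean CPM, y axis), in the order of the locus (x axis); filled symbols and bold names mark the 4 rows with an adjusted chi-square p below 0.05. Trbv31 spreads 2.41-fold between libraries and Trbc2 1.09-fold.

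Other genes of the receptor were abundant and genes of its assembly nearly absent. Trac, the constant gene of the alpha chain, was at 406 ± 53.8 CPM. Per kilobase of exon that is 434 ± 57.5 CPM, set beside 493 ± 22.8 for Trbc2 and 209 ± 26.8 for Trbc1, whose split is uncertain. Against the summed counts of both beta constant genes, with no correction for length, the log2 ratio of Trac was -0.520, -0.237 and -0.151 in replicates 1, 2 and 3. The CD3 genes Cd3e, Cd247 and Cd3d were at 364 ± 24.2, 194 ± 12.8 and 137 ± 23.7 CPM, and Cd3g was at 144, 157 and 185 CPM. Trdc, the constant gene of the delta chain, was at 2.25 ± 0.324 CPM. The recombinase gene Rag2 was at 0 counts in every library, Rag1 had 0, 2 and 6 counts, and Dntt, the enzyme that adds bases at the joints, had 0, 2 and 3. Ptcra, the chain that pairs with beta in thymocytes, had 0, 0 and 1. Of the 10 receptor genes in the table, all 5 with more than 100 CPM differed between libraries in the chi-square test. Of all genes tested, 42.8% did. These 5 genes had at least 1827 counts in each library, against a median of 813.5 summed counts for all genes tested. At that depth the test finds small differences. Trdc, with 24, 38 and 38 counts, did not pass (adjusted chi-square p = 0.639). Rag1, Rag2, Dntt and Ptcra were too low to be tested.

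Of the genes between the segments Try5 was detected, and of those beside them Ephb6. The locus holds trypsinogen genes among its variable segments; Prss1 and Try10 were at 0 counts, and Prss2, Prss3 and Try4 had at most 4 in any library. Try5 had 8, 11 and 14 counts. Of the flanking genes, Moxd2 was at 0, Mgam had 0, 0 and 1 counts and Ephb6, a receptor kinase gene expressed in T cells, was at 27.9 ± 3.46 CPM.

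The labelled cell type was borne out by its markers. The 9 T cell markers summed to 3216 to 3438 CPM per library, and B cell markers to 13.8 to 14.6 CPM. Thy1, the gene of the CD90 protein used to select the cells, is among the 9, at 124, 122 and 152 CPM, and is not independent of the selection. Markers of gamma-delta T cells summed to 3.06 to 4.02 CPM, with 5 of 8 symbols in the table. NK cell markers summed to 0.786 to 0.991 CPM, with 3 of 5 at 0 (Ncr1, Klra8 and Klra4) and Klrb1c at 10, 12 and 14 counts. Whether BALB/c mice carry Klra8 and Klra4 was not checked here, so the zeros of these genes say nothing on NK cells. Macrophage markers summed to 0.550 to 0.867 CPM, with Csf1r at 0 and Itgam at 3, 8 and 7 counts. Platelet markers had at most 1 count each, and thymocyte markers summed to at most 0.619 CPM, with Rag2 at 0. Erythroid and neutrophil sums, given above, fell from replicate 1 to replicate 3, on few counts. No neutrophil marker was at 0 in all 3 libraries, and none had enough counts to be tested. Of the erythroid markers, Hba-a1 and Hbb-bs were tested and did not pass (adjusted chi-square p = 0.780 and 0.0536). Library totals were 13239482, 15007652 and 15683820 counts.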

How the data were processed

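Per the labels, total RNA of 3 libraries was read on Ion Proton chips. Raw counts, 1 row per symbol, are what the authors deposited. The submitters' processing notes name mm10. Aligner, annotation and counting rule: not given in the sources used here. Counts were scaled by TMM in edgeR 4.0.16 (factors 0.962, 1.01 and 1.03) and given as CPM. DESeq2 1.42.0 size factors were an alternative. Shares were taken within each segment class per library, with exact (Clopper-Pearson) 95% binomial intervals (scipy 1.17.1). Log2 ratios used a pseudocount of 0.5 counts. The chi-square test took genes with an expected count of at least 5 in each library, was adjusted over all of them, and was tested on simulated data. The simulated counts held counting error alone besides the differences put in, so they cannot tell how the test behaves under wider spread between libraries. edgeR's count test needs a contrast, and there was 1 group.

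Positions and gene types came from the RefSeq table (GRCm38.p6), exonic lengths, types and transcripts from GENCODE M21 (GRCm38); all 53 symbols matched both. Segments were aligned with Biopython 1.88. Named genes were the 10 variable segments of highest share, the superantigen list, pseudogene rows with counts, the diversity and constant rows, the highest and lowest joining rows of each cluster, the rows that differed between libraries, and fixed lists of receptor and neighbouring genes; other segments were named after their values were seen. The segments, lists and tests were chosen with earlier results of these data known. Trgc1, Trgc2, Trgc4 and Adgre1 were not matched.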

Additional observations from a re-analysis of the deposited data

How the results depend on the processing

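Of 36 alternative values for the summary results that keep all libraries, 32 stayed within 1 SD of the value reported, within 1.5 times of a count, or kept the direction of a ratio. Many of these alternatives could hardly move a value, so their count is not a measure of stability. They include pooling libraries of like size, keeping rows with at least 10 counts, a pseudocount of 5 counts, and other scaling of class means. Leaving out 1 of 3 libraries cannot move a mean by 1 SD, so it says nothing on the stability of shares and levels. Per kilobase of exon, the effective number of variable segments was 8.18 and the share of the 5 most abundant 66.6%. Summing the Trbv12 and Trbv13 families, an alternative chosen after seeing the data, gave an effective number of 4.34. With RefSeq gene types, also chosen afterwards, the pseudogene share was 4.29%; the sum of both constant genes was likewise added afterwards. Without replicates 1, 2 and 3 in turn, 3 of 35, 5 of 34 and 1 of 34 tested Trb rows differed between libraries. The 1 row without replicate 3 was Trbc2. Over all genes, in the same order, 3836 of 15717, 6403 of 15360 and 3555 of 15573 tested genes differed. The counts of calls without a library come from tests of 2 libraries. Typing pseudogenes by an open reading frame in a protein table was not run, as no such table was used here, and the share of Trbd2 had no value because both diversity rows were at 0. The 605 to 816 joining and 1960 to 2314 variable counts per library limit the shares of rare segments. No paired analysis was possible because all libraries belong to 1 group.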
